A study of Mus musculus with 12 samples.

Results

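The question addressed here is which genes of mouse epididymal fat answered a high fat diet differently when Siah2 was disrupted. All 12 arrays of the series entered the comparison, in a design of 2 genotypes by 2 diets: the change from low to high fat in knockout mice minus the same change in wild type mice, on a log2 scale. Below, this difference between the diet responses is called the interaction. A negative interaction means that the change with high fat was more negative, or less positive, in the knockout. The mice were C57BL/6J males, 20 weeks old, weaned at 4 weeks onto a diet with 10% fat (low fat) or 45% fat (high fat). They were wild type or carried a global knockout of Siah2, so the gene was disrupted in every cell type of the fat and not only in fat cells. Each of the 4 groups had 3 RNA pools. The pools combined RNA of several animals, from 10 animals in each of wild type low fat, wild type high fat and knockout low fat, and from 8 animals in knockout high fat. P-values therefore measure the spread between pools and not between single animals. The labels do not say which pool held how many animals. Levels are the authors' normalized bead intensities and have no physical unit.

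Siah2 is a RING-type ubiquitin ligase: it attaches ubiquitin to chosen proteins and so marks them for breakdown by the proteasome. Its best known substrates include the prolyl hydroxylases that hold the hypoxia-inducible factors in check. When the epididymal depot grows on a high fat diet, its fat cells enlarge, the matrix around them is remodelled, and monocytes enter and become macrophages that gather around dying fat cells and take up their lipid. In bulk RNA of a whole depot, fewer cells of a type and less RNA per cell cannot be told apart.

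The tissue label was checked with genes that define fat cells. Adipoq, the hormone adiponectin, stood between 24973 and 37111 in the 12 pools, and Cidec, a lipid droplet protein, between 13088 and 29197. Fabp4, a fatty acid carrier, stood at 582 in wild type high fat pool 2 and between 3042 and 5966 in the other pools. The Siah2 probe read 102, 121 and 91.6 in wild type low fat, 111, 78.6 and 89.0 in wild type high fat, 102, 62.2 and 63.4 in knockout low fat, and 55.3, 68.2 and 45.0 in knockout high fat. The library labelled knockout low fat pool 1 thus lay within the wild type range, and whether the probe lies inside the disrupted sequence is not stated in the labels. Its interaction was -0.12 (SE 0.21, adjusted p = 0.776).

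RNA of organs next to the depot varied with the same groups. All 48 measured epididymal genes were above the detection floor, an intensity of about 27.9, in the wild type low fat group, while 28 of the 48 were below it in wild type high fat. Their summed intensity ran from 362521 to 533911 in wild type low fat, from 1205 to 3786 in wild type high fat, from 24377 to 276550 in knockout low fat and from 187 to 205839 in knockout high fat. The highest of the last group was pool 2. All 12 seminal vesicle genes were above the floor in wild type low fat, at sums of 69173 to 339127, and 11 of the 12 were below it in wild type high fat. The skeletal muscle list, with 20 genes, had a mean log2 level of 9.03 in knockout low fat pool 1 and of 7.02 and 7.12 in the other pools of that group. The epididymal mean itself had an interaction of 3.45, because it fell by 5.85 with high fat in wild type and by 2.40 in knockout. The genes of these organs are left out of the account that follows, and the main results are repeated from a fit with the mean of the epididymal list as a covariate. That covariate differs between the groups, while its slope is fitted from the spread of pools within groups. An interaction can come out smaller, equal or larger in that fit. The median standard error over all genes was 0.27 there, against 0.226 without the covariate. The part of tract RNA in the results was not tested beyond these fits.

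**Figure D1:**
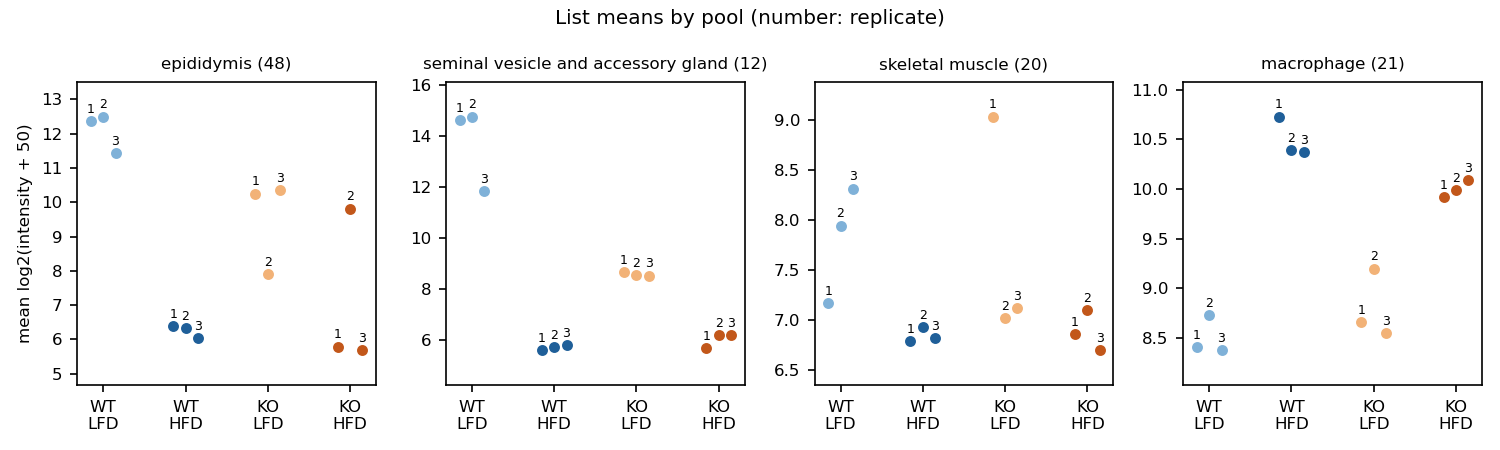
Mean log2(intensity + 50) of the epididymis, seminal vesicle, skeletal muscle and macrophage lists in each of the 12 pools; numbers beside the points are pool numbers. The epididymal and seminal vesicle lists were highest in wild type low fat, knockout high fat pool 2 stood at 9.81 for the epididymal list, and the macrophage list was higher on high fat in both genotypes.

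Of 11705 genes tested, 12 had an interaction with a Benjamini-Hochberg adjusted p under 0.05 in limma, which is 0.103% of the genes. All adjusted p-values below are from this fit, all errors (SE) are its standard errors, and each group mean rests on 3 pools. The interaction was positive for 7 of them (0.0598%) and negative for 5 (0.0427%). Of the 12, 6 were genes of the reproductive tract. At an unadjusted p under 0.05 there were 2393 genes (20.4%), 1430 more negative (12.2%) and 963 more positive (8.23%). After cyclic loess scaling of the arrays the same count split into 1038 more negative and 1272 more positive, so the balance between the directions depended on the scaling. At an adjusted p under 0.1 there were 94 genes (0.803%). The number of genes called was set by single pools: it was 124 without knockout low fat pool 1, 101 without wild type low fat pool 3, 41 without knockout high fat pool 3, and 5 without knockout high fat pool 1, wild type high fat pool 2 or wild type low fat pool 2. It was 3, all tract genes, with the epididymal covariate, and 3 without pool 2 of both knockout groups. At an unadjusted p under 0.05 the same fits gave 610 genes (5.21%) and 1107 genes (9.46%) in turn, against 20.4% in the main fit. The list counts below at that p are from the main fit unless the covariate is named.

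Among genes with an unadjusted p under 0.05, the commonest pattern was a wild type response to high fat that was larger than the knockout response in the same direction. Outside the tract, 917 of the 1430 more negative genes had a rise in both genotypes as fitted, 493 had a rise in wild type and a fall in knockout, and 20 had a fall in both. Of 924 more positive genes, 680 had a fall in both and 242 a fall in wild type with a rise in knockout. A rise in both thus made up 64.1% of the more negative genes, and a fall in both 73.6% of the more positive ones. Over all 11615 genes outside the tract, 38.5% had a rise in both and 34.3% a fall in both. The genes were chosen on the difference between the wild type and knockout responses, so part of this pattern is given by the choice. These are signs of fitted values, and single genes among them need not pass a test. The larger share of the genotype difference lay on low fat for 970 of the 1430 and 751 of the 924. It lay on high fat for 32.2% of the more negative genes, 18.7% of the more positive genes and 38.6% of all 11615 genes outside the tract.

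Vsig8, Gdf3, Kcnn4 and Treml1 rose with high fat in wild type fat and rose less, or did not pass the test, in knockout fat, while Wfdc1 fell in wild type fat and did not pass the test in knockout fat. These 5 genes are among those past the interaction threshold outside the tract, and each is described below with its level in every pool.

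Vsig8, a membrane protein of the immunoglobulin superfamily, gave the most negative interaction of the 5. Its intensity was 1.77, 0.108 and -1.89 in wild type low fat and 484, 563 and 422 in wild type high fat. In the knockout it was 0.81, 6.04 and 5.8 on low fat and 38.0, 68.9 and 105 on high fat. On low fat both genotypes were below the detection floor, and on high fat every knockout pool was below every wild type pool. The wild type high fat level was at least 6.89-fold that of wild type low fat, and the knockout high fat level at least 1.51-fold that of knockout low fat, with the dim group set to the floor on the scale of intensity plus 50. The fitted log2 change with high fat was 3.42 in wild type (SE 0.18, adjusted p = 3.71e-06) and 1.12 in knockout (SE 0.18, adjusted p = 0.00839), and the interaction was -2.31 (SE 0.25, adjusted p = 0.00522). On high fat alone the knockout was lower, with a log2 difference of -2.19 (SE 0.18, adjusted p = 0.00122). With the epididymal covariate the interaction was again -2.31 (SE 0.33), with an adjusted p of 0.0766. It passed the threshold in all 12 fits that left out 1 pool.

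Gdf3, a ligand of the TGF-beta family that adipose tissue macrophages make and that acts on fat cells through the receptor ALK7 in mice, was above the floor in 1 group only. It read 6.11, -0.50 and -0.317 in wild type low fat, 209, 183 and 119 in wild type high fat, -2.48, 3.24 and -1.96 in knockout low fat, and 12.8, 20.4 and 11.9 in knockout high fat. All knockout high fat pools were below the floor, yet above all pools on low fat. The wild type high fat level was at least 2.78-fold that of wild type low fat and at least 2.78-fold that of knockout high fat. Its interaction was -1.68 (SE 0.21, adjusted p = 0.014) without the covariate and -1.77 (SE 0.27, adjusted p = 0.128) with it. The call was lost without knockout high fat pool 1 (adjusted p = 0.0553), wild type high fat pool 2 (0.0687) or wild type low fat pool 2 (0.0646).

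Kcnn4, a calcium-activated potassium channel of immune and red blood cells, rose in both genotypes. Its intensities were 21.6, 25.4 and 31.2 in wild type low fat and 243, 226 and 253 in wild type high fat, against 17.8, 44.1 and 21.1 in knockout low fat and 73.7, 70.7 and 85.2 in knockout high fat. The groups overlapped on low fat and were separate on high fat, where the lowest wild type pool was above the highest knockout pool. Both low fat groups were below the floor on average, so that the high fat level was at least 3.68-fold that of low fat in wild type and at least 1.52-fold in knockout. The fitted log2 change, which is not a bound, was 1.94 in wild type (SE 0.13, adjusted p = 1.15e-05) and 0.72 in knockout (SE 0.13, adjusted p = 0.0127). The interaction was -1.22 (SE 0.18, adjusted p = 0.0366), and -0.98 (SE 0.20, adjusted p = 0.451) with the covariate. It passed the threshold in 4 of the 12 fits that left out 1 pool, where its adjusted p lay between 0.0177 and 0.154.

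Treml1, a receptor-like protein of the TREM family known from platelets, differed between genotypes on low fat as well. Its values were 3.70, 10.5 and 5.84 in wild type low fat, 89.0, 86.0 and 61.4 in wild type high fat, 42.9, 32.5 and 33.0 in knockout low fat, and 37.5, 37.3 and 46.7 in knockout high fat. The knockout pools on both diets thus lay between the wild type groups. Wild type low fat was below the floor, and wild type high fat was at least 1.65-fold higher. The fitted log2 change with high fat was 1.18 in wild type (SE 0.11, adjusted p = 6.43e-05) and 0.07 in knockout (SE 0.11, adjusted p = 0.814). On low fat the knockout was higher by 0.60 (SE 0.11, adjusted p = 0.0233), or at least 1.10-fold against the floor. The interaction was -1.11 (SE 0.16, adjusted p = 0.0279), also with the covariate (SE 0.21, adjusted p = 0.3), and passed in 4 of the 12 fits with 1 pool left out, with adjusted p-values from 0.012 to 0.13.

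Wfdc1, a secreted protein with a whey acidic protein domain as found in protease inhibitors, was the one called gene outside the tract with a positive interaction. It read 447, 513 and 497 in wild type low fat, 93.2, 88.3 and 115 in wild type high fat, 323, 185 and 245 in knockout low fat, and 282, 248 and 202 in knockout high fat. Knockout pools were below all wild type pools on low fat and above all of them on high fat. The change with high fat was -1.85 in wild type (SE 0.17, adjusted p = 4.78e-05) and -0.02 in knockout (SE 0.17, adjusted p = 0.973), and the interaction was 1.83 (SE 0.24, adjusted p = 0.0147). With the covariate the interaction was 1.65 (SE 0.29, adjusted p = 0.257). Its call held in 7 of the 12 fits that left out 1 pool.

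**Figure D2:**
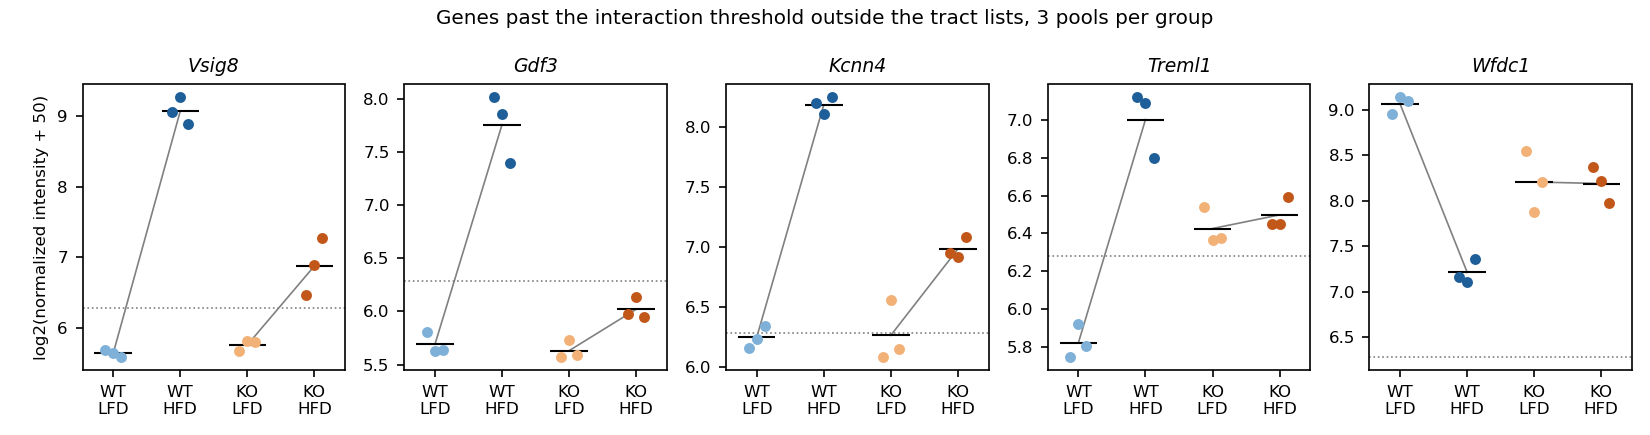
Level of 5 of the 6 genes past the interaction threshold outside the tract lists, as log2(normalized intensity + 50). Points are the 3 pools of a group, short bars their mean, and grey lines join the diets of a genotype. The dotted line is the detection floor. Vsig8, Gdf3 and Kcnn4 differ between genotypes on high fat, and Treml1 and Wfdc1 stay nearly level in the knockout.

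The promoters of the called genes are shown because Mitf, a transcription factor described below, and the myeloid factor PU.1 are known to bind short motifs that can be looked up in them. Of the 5 genes, 3 had an entry in the RefSeq promoter table (assembly GRCm38.p6). The 250 bases before the transcription start on the + strand follow, at chr7:24370013-24370262 for Kcnn4, chr17:48359666-48359915 for Treml1 and chr1:172555688-172555937 for Vsig8, whose first of 2 listed starts was used. Capitals mark CACGTG, the E-box of basic helix-loop-helix factors, or GAGGAA, the core motif of PU.1.
Kcnn4: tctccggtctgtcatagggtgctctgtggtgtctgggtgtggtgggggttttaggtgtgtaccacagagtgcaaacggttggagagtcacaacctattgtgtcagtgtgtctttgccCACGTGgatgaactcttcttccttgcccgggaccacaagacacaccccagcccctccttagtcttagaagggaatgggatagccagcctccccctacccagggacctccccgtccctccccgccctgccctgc
Treml1: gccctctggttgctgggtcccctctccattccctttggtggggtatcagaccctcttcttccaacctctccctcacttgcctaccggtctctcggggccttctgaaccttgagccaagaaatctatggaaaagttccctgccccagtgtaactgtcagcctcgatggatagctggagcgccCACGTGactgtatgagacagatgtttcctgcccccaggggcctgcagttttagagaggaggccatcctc
Vsig8: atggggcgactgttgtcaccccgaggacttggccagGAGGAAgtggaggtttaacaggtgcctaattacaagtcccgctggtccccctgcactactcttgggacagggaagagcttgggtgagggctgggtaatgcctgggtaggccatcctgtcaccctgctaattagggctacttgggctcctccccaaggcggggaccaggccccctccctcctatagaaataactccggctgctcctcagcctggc
Searched on both strands, CACGTG was found at -133 in Kcnn4 and at -69 in Treml1, counted from the start site, and GAGGAA at -214 in Vsig8. CATGTG, another E-box, and TATAAA were in none of the 3. Of 27025 promoters of that length in the table, 6.04% held CACGTG, 23.1% GAGGAA, 12.2% CATGTG and 13% TATAAA. A match is a description of the letters and not evidence of binding.

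The genes that came next by p-value with a negative interaction did not pass the threshold. Several are known from myeloid cells, and Orm2, described with the fat cell genes below, is an acute phase protein. Mitf, a basic helix-loop-helix factor that in macrophages and other cells controls lysosomal genes, read 1.49, 0.333 and 0.758 in wild type low fat, 51.5, 44.7 and 39.2 in wild type high fat, 26.1, 31.5 and 20.5 in knockout low fat, and 10.6, 23.1 and 30.0 in knockout high fat. Its interaction was -1.0 (SE 0.16, adjusted p = 0.0632), with all groups but wild type high fat below the floor on average. Syngr1, a vesicle membrane protein, read 40.2, 37.6 and 11.8 in wild type low fat and 251, 197 and 187 in wild type high fat, against 45.5, 51.6 and 35.4 and then 47.8, 66.6 and 73.6 in the knockout. Every wild type high fat pool of Syngr1 was above every other pool. Its interaction was -1.47 (SE 0.23, adjusted p = 0.0612), and on high fat alone the knockout was lower, with a log2 difference of -1.21 (SE 0.17, adjusted p = 0.0286). The dimmer probe of Syngr1 gave an interaction of -0.77.

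Arhgap25, a GTPase-activating protein of leukocytes, rose in both genotypes. It read 72.4, 113 and 100 in wild type low fat and 1993, 1797 and 1757 in wild type high fat, a change of 3.72 (SE 0.23, adjusted p = 9.53e-06). In the knockout it read 116, 213 and 168 on low fat and 474, 735 and 963 on high fat, a change of 1.82 (SE 0.23, adjusted p = 0.00371). The interaction of Arhgap25 was -1.9 (SE 0.33, adjusted p = 0.0713). Clec4d, a C-type lectin receptor of myeloid cells, also rose in both. Its wild type low fat group was below the floor, so wild type high fat was at least 5.96-fold higher. The fitted log2 changes of Clec4d were 3.03 in wild type and 1.89 in knockout (SE 0.14 for each, adjusted p = 1.58e-06 and 0.000175), with an interaction of -1.14 (SE 0.20, adjusted p = 0.0713). Fam168a completed the group with an interaction of -1.25 (SE 0.21, adjusted p = 0.0713).

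Macrophage genes rose with high fat in both genotypes and by less in the knockout as fitted, without a single call among the list's own members. Of 21 measured genes of the macrophage list, 21 rose in wild type (22.8% of all genes did) and 16 in knockout (3.55% of all genes did). The interaction had an unadjusted p under 0.05 and a negative sign in 14 of the 21, against 12.2% of all genes, and in 0 of the 21 with a positive sign, against 8.23%. The same shares of all genes stand beside the counts of every list below. The median interaction of the list was -0.96, against -0.08 over all genes tested. It was -0.66 with the epididymal covariate, where 3 of the 21 had a negative sign at that p (2.9% of all genes did), and -0.65 without pool 2 of both knockout groups. The median genotype difference was 0.27 on low fat and -0.47 on high fat.

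Within the list, Tyrobp, the adaptor of many myeloid receptors, read 243, 367 and 174 in wild type low fat, 3234, 2905 and 2499 in wild type high fat, 257, 460 and 222 in knockout low fat and 1105, 1459 and 1480 in knockout high fat. On high fat the lowest wild type pool was above the highest knockout pool, and on low fat the genotypes overlapped. Its interaction was -1.28 (SE 0.38, adjusted p = 0.143). Cyba, a subunit of the phagocyte oxidase, followed with 4888, 4107 and 3889 in wild type high fat and 2237, 2501 and 2348 in knockout high fat, and an interaction of -0.99 (SE 0.23, adjusted p = 0.11). Ncf4, another oxidase subunit, gave -1.09 (SE 0.32, adjusted p = 0.143).

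The list of lipid-associated macrophages, the cells that take up lipid from dying fat cells, had 2 called members, Gdf3 and Kcnn4, both described above. The lists were written with earlier results of these data known, so called members are no separate support for a list. Of its 22 measured genes, 13 were more negative and 1 more positive at an unadjusted p under 0.05. The median change with high fat was 1.99 in wild type and 0.77 in knockout, and the median interaction was -0.85, or -0.64 with the covariate and -0.68 without pool 2 of both knockout groups. Fabp5, a fatty acid carrier of macrophages and fat cells, showed where this list is mixed. It read 323, 226 and 201 in wild type low fat, 1488, 1119 and 1113 in wild type high fat, 595, 893 and 636 in knockout low fat, and 1070, 873 and 1243 in knockout high fat. The genotypes overlapped on high fat and were separate on low fat, where the knockout was higher by 1.34 (SE 0.20, adjusted p = 0.0141), and its interaction was -1.55 (SE 0.29, adjusted p = 0.0794).

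Innate receptors and lysosomal enzymes had the same direction. Of 26 innate immune receptors 15 were more negative and 0 more positive at an unadjusted p under 0.05, with a median interaction of -0.72, or -0.49 with the covariate. Clec4d led this list with Treml1 and Vsig8, the called genes described above, and this list too was written with earlier results known. Of 28 lysosomal genes 13 were more negative and 0 more positive, with a median of -0.38 (-0.35 with the covariate). Lipa, the acid lipase that frees fatty acids from engulfed lipid, read 847, 1171 and 1211 in wild type low fat, 6627, 6772 and 4847 in wild type high fat, 1712, 1631 and 1600 in knockout low fat, and 3343, 4206 and 4181 in knockout high fat. The knockout pools of Lipa lay between the wild type groups on both diets. It rose by 2.45 in wild type (SE 0.17, adjusted p = 1.25e-05) and by 1.21 in knockout (SE 0.17, adjusted p = 0.00502), and the interaction was -1.23 (SE 0.24, adjusted p = 0.085). Gusb, the lysosomal beta-glucuronidase, gave -0.82 (SE 0.16, adjusted p = 0.0821). Its high fat pools read 6638, 6249 and 5387 in wild type and 3720, 3802 and 3954 in knockout. The dimmer probes of Gusb gave smaller values, -0.46 and -0.52.

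The antigen presentation list, which holds class I and class II genes, followed with 9 more negative and 0 more positive of 18 genes and a median interaction of -0.52 (-0.26 with the covariate). H2-Eb1, a class II chain, read 2848, 3762 and 2738 in wild type low fat, 11198, 10097 and 10922 in wild type high fat, 3723, 4573 and 3144 in knockout low fat, and 7388, 6044 and 6820 in knockout high fat. The separation was again on high fat alone, and the interaction was -0.95 (SE 0.23, adjusted p = 0.115). Ciita, the coactivator that switches class II genes on, gave -0.95 (SE 0.22, adjusted p = 0.113). H2-Ab1, a partner chain, gave -0.82 (SE 0.21, adjusted p = 0.125).

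Among transcription factors and signals of these cells, Irf5, which drives inflammatory gene expression in macrophages, rose by 2.54 in wild type (SE 0.20, adjusted p = 2.62e-05) and by 1.08 in knockout (SE 0.20, adjusted p = 0.0153), with an interaction of -1.45 (SE 0.29, adjusted p = 0.0877). Its pools read 1216, 1064 and 1068 in wild type high fat and 662, 518 and 661 in knockout high fat. Il1rn, the antagonist of the interleukin 1 receptor, read 495, 400 and 320 and 105, 177 and 252 in the same groups, with both low fat groups below the floor and an interaction of -1.15 (SE 0.34, adjusted p = 0.146). The genotypes did not overlap on high fat for either gene. Of 25 chemokine and cytokine genes, 7 were more negative and 3 more positive, with a median of -0.44 (-0.22 with the covariate). Il33, an alarmin made by stromal cells, was among the 3. It read 353, 404 and 288 in wild type low fat, 198, 190 and 204 in wild type high fat, 342, 182 and 263 in knockout low fat and 265, 346 and 276 in knockout high fat, and its interaction was 0.85 (SE 0.26, adjusted p = 0.147).

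Among the other immune lists, that of resident or alternatively activated macrophages had 4 of 20 more negative with a median of -0.57 (-0.26 with the covariate). The lists of complement (4 of 16, median -0.30, or -0.06 with the covariate) and interferon response (3 of 19, median -0.18, or 0.09) had a similar share. For T, B and natural killer cells it was 2 of 12 more negative and 1 more positive with a median of -0.21, and for mast cells and granulocytes 1 of 11 with a median of -0.08. Over all genes 12.2% were more negative, with a median of -0.08. The interferon, T, B and natural killer cell, and mast cell and granulocyte lists were thus near all genes. C1qa, a complement component made by resident macrophages, gave an interaction of -0.67 (SE 0.26, adjusted p = 0.198). S100a8, a neutrophil and monocyte protein, gave -1.56 (SE 0.60, adjusted p = 0.193). The immediate early and stress list had 6 of 23 more negative and a median of -0.28, and Atf3, a stress-induced transcription factor, rose by 3.63 in wild type and by 2.40 in knockout (SE 0.29 for each, adjusted p = 2.61e-05 and 0.00328) with an interaction of -1.23 (SE 0.40, adjusted p = 0.157). In the cell cycle list 7 of 25 were more negative and 1 more positive, with Birc5, a mitotic protein, at -0.83 (SE 0.24, adjusted p = 0.143).

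**Figure D3:**
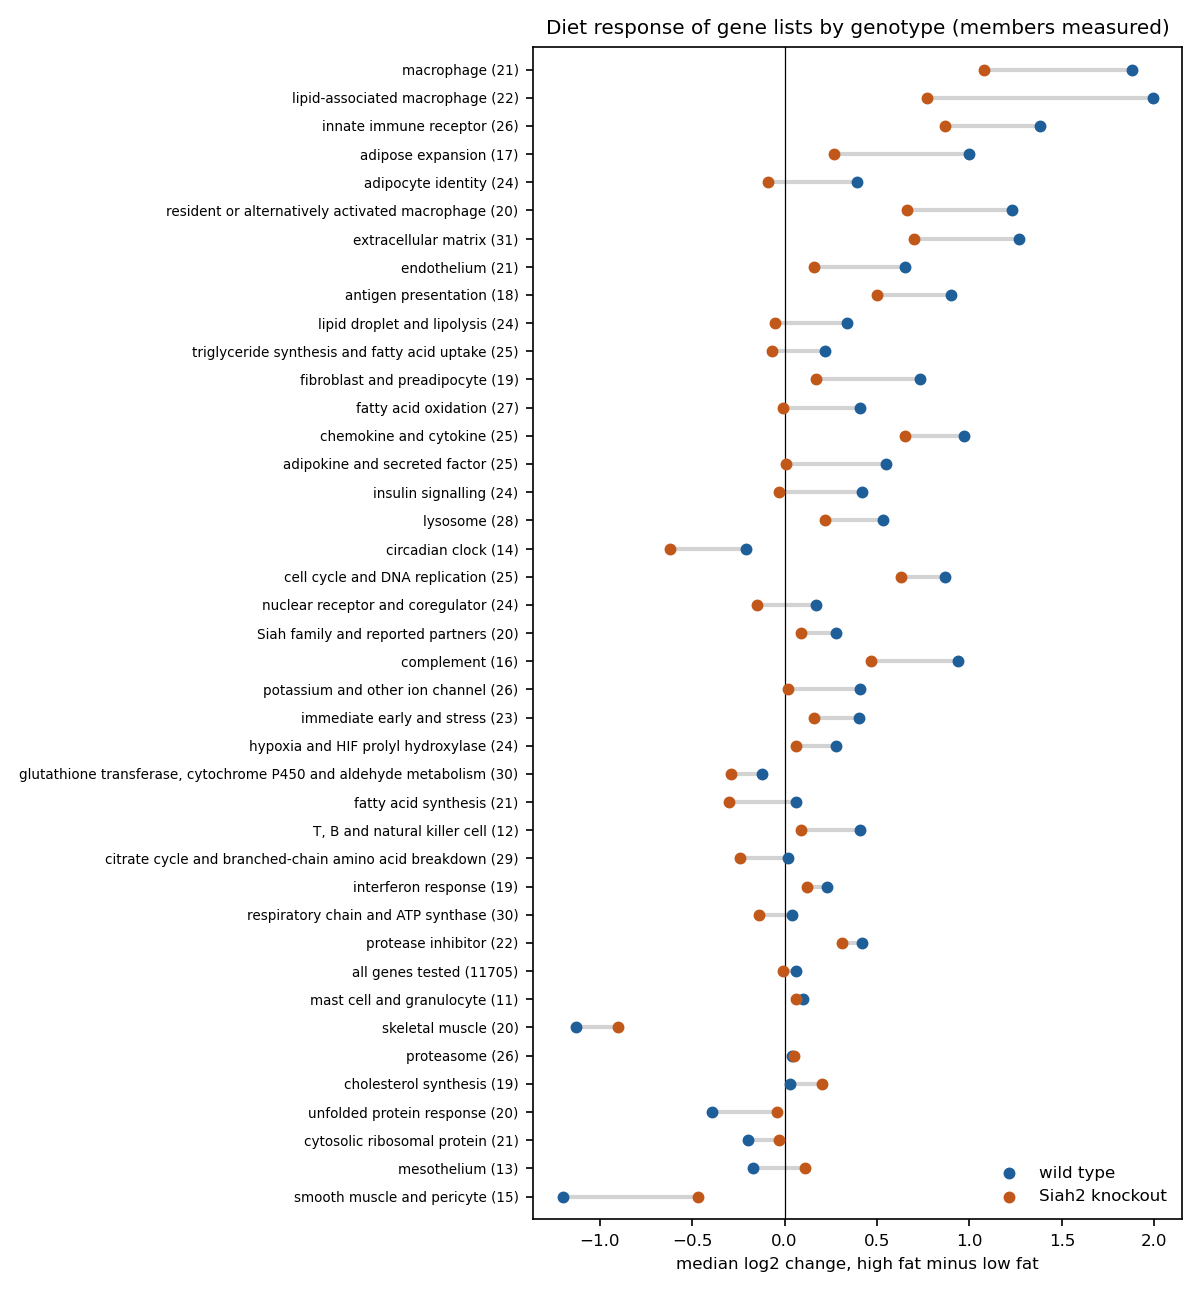
Median log2 change with high fat of each gene list outside the tract in wild type (blue) and Siah2 knockout (orange), with the number of genes measured in parentheses and lists ordered by their median interaction. The macrophage list moved by 1.88 in wild type and 1.08 in knockout, and adipocyte identity by 0.39 and -0.09.

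Fat cell genes had negative interactions in which the genotypes were further apart on low fat than on high fat. This shape was not particular to them, as 38.6% of all genes outside the tract differed more on high fat. Some immune genes had it too: Irf8 (0.83 on low fat, -0.14 on high fat), Clec7a (1.20, -0.17) and S100a8 (1.48, -0.08). The median of the resident or alternatively activated macrophage list was 0.30 on low fat and -0.11 on high fat. Of 24 adipocyte identity genes, 8 were more negative and 0 more positive at an unadjusted p under 0.05, and the median interaction was -0.59. The median genotype difference was 0.67 on low fat and 0.06 on high fat. With the epididymal covariate the list's median interaction was -0.21, with 1 gene of the 24 more negative at that p, and without pool 2 of both knockout groups it was -0.34. Tract RNA was highest in the wild type low fat group, against which these differences on low fat are taken.

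Cidec, which fuses lipid droplets, read 15925, 13088 and 14737 in wild type low fat, 24433, 23282 and 23735 in wild type high fat, 21412, 29197 and 27332 in knockout low fat, and 27659, 22679 and 27332 in knockout high fat. The 3 wild type low fat pools stood below the other 9. Its interaction was -0.71 (SE 0.19, adjusted p = 0.136), and on low fat the knockout was higher by 0.82 (SE 0.14, adjusted p = 0.0173). Aqp7, the glycerol channel of fat cells, gave -0.78 (SE 0.25, adjusted p = 0.152), also with the knockout higher on low fat (0.73, SE 0.17, adjusted p = 0.0371). The transcription factor Pparg, the master regulator of fat cell formation, gave -0.49 (SE 0.27, adjusted p = 0.322). The dimmer probes of Pparg gave -0.88 and -0.33.

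Genes of fat expansion and secreted factors of fat cells shared this shape. Of the 17 expansion genes, 6 were more negative and 0 more positive, with a median interaction of -0.72 (-0.31 with the covariate). Fgf13, an intracellular member of the fibroblast growth factor family, read 1020, 901 and 633 in wild type low fat, 4498, 4746 and 4524 in wild type high fat, 2005, 3168 and 2291 in knockout low fat, and 4440, 3867 and 5844 in knockout high fat. Its knockout level was higher on low fat by 1.49 (SE 0.21, adjusted p = 0.0119) and differed by 0.02 (SE 0.21) on high fat, for an interaction of -1.47 (SE 0.30, adjusted p = 0.0905). Orm1, an acute phase glycoprotein that fat cells secrete, read 4287, 3685 and 3510 in wild type low fat and 9396, 8997 and 9611 in wild type high fat, and between 7037 and 11232 in the 6 knockout pools. It rose by 1.28 in wild type (SE 0.17, adjusted p = 0.000373) against -0.03 in knockout (SE 0.17, adjusted p = 0.95), and the interaction was -1.31 (SE 0.24, adjusted p = 0.0783). Orm2, its neighbour in the family, gave -1.68 (SE 0.29, adjusted p = 0.0713). Probes of near-identical genes such as these may bind each other's transcripts. Bmp3 and Npr3, a growth factor and the natriuretic peptide clearance receptor, gave -0.86 (SE 0.24, adjusted p = 0.141) and -1.10 (SE 0.36, adjusted p = 0.156).

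Genes of lipid metabolism gave values of the same shape. In the list of lipid droplet and lipolysis genes 8 of 24 were more negative and 0 more positive (median -0.52), and in fatty acid oxidation 9 of 27 and 0 (median -0.44). With the covariate these medians were -0.19 and -0.21, with 1 of 24 and 2 of 27 more negative at that p (2.9% of all genes were). Dgat2, the last enzyme of triglyceride synthesis, read 19846, 16238 and 14886 in wild type low fat and between 23282 and 36160 in the other 9 pools, with an interaction of -0.67 (SE 0.20, adjusted p = 0.145). Abhd5, the activator of the first triglyceride lipase, gave -0.69 (SE 0.18, adjusted p = 0.129), and Plin2, a droplet coat protein, -1.08 (SE 0.35, adjusted p = 0.153). Pdk4, which shuts glucose carbon out of the citrate cycle during fasting, read 518, 458 and 835 in wild type low fat, 1512, 3162 and 1934 in wild type high fat, 1382, 1772 and 1142 in knockout low fat, and 1573, 1883 and 1883 in knockout high fat. Its interaction was -1.44 (SE 0.39, adjusted p = 0.136). On low fat the knockout stood higher for Pdk4 (1.20, SE 0.28, adjusted p = 0.035) and Dgat2 (0.66, SE 0.14, adjusted p = 0.0294).

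Mitochondrial and glucose genes had smaller medians. They were -0.17 for 30 respiratory chain genes, of which 4 were more negative, -0.21 for 29 genes of the citrate cycle and branched-chain amino acid breakdown, of which 6 were, and -0.25 for 21 fatty acid synthesis genes, of which 7 were more negative and 3 more positive. Under the covariate these medians were -0.06, -0.14 and -0.21. Over all genes 12.2% were more negative, with a median of -0.08, or -0.02 with the covariate, so the respiratory chain list was near all genes. Of 24 insulin signalling genes 7 were more negative (median -0.40, or -0.23 with the covariate). Irs2, a docking protein of the insulin receptor, read 490, 425 and 334 in wild type low fat, 538, 696 and 725 in wild type high fat, 657, 780 and 1134 in knockout low fat, and 599, 386 and 715 in knockout high fat. Its fitted changes had opposite signs in the genotypes, 0.60 and -0.56 (SE 0.24 for each), neither of which passed the test (adjusted p = 0.0734 and 0.27), and the interaction was -1.16 (SE 0.34, adjusted p = 0.144). Slc25a20, the carnitine carrier that brings fatty acids into mitochondria, gave -0.57 (SE 0.15, adjusted p = 0.129), and its dimmer probe gave -0.23.

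Genes of the stroma were intermediate. Of 31 matrix genes 27 rose in wild type (22.8% of all genes did) and 14 in knockout (3.55% of all genes did). At an unadjusted p under 0.05, 11 had a more negative interaction (12.2% of all genes) and 0 a more positive one (8.23%). The median interaction was -0.55, or -0.31 with the covariate, where 0 of the 31 were more negative at that p (2.9% of all genes were). The median genotype difference was 0.31 on low fat and -0.14 on high fat. Tnc, the matrix protein tenascin C, read 90.6, 107 and 98.6 in wild type low fat, 412, 320 and 354 in wild type high fat, 101, 223 and 172 in knockout low fat, and 259, 239 and 320 in knockout high fat. On high fat the lowest wild type and the highest knockout pool of Tnc both rounded to 320, and its interaction was -0.85 (SE 0.27, adjusted p = 0.154). Sparc, a collagen-binding protein, gave -0.74 (SE 0.24, adjusted p = 0.154), and the basement membrane collagen Col4a1 gave -0.59 (SE 0.19, adjusted p = 0.157). The dimmer probe of Sparc gave -0.40. Of 21 endothelial genes 7 were more negative (median -0.55, or -0.18 with the covariate), with Eng, a TGF-beta coreceptor, at -1.03 (SE 0.30, adjusted p = 0.144). In the fibroblast and preadipocyte list 5 of 19 were more negative and 2 more positive, with a median of -0.47 (-0.11 with the covariate). Dpp4, a protease of early preadipocytes and of mesothelial and epithelial surfaces, was one of the 2, at 1.10 (SE 0.36, adjusted p = 0.154).

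**Figure D4:**
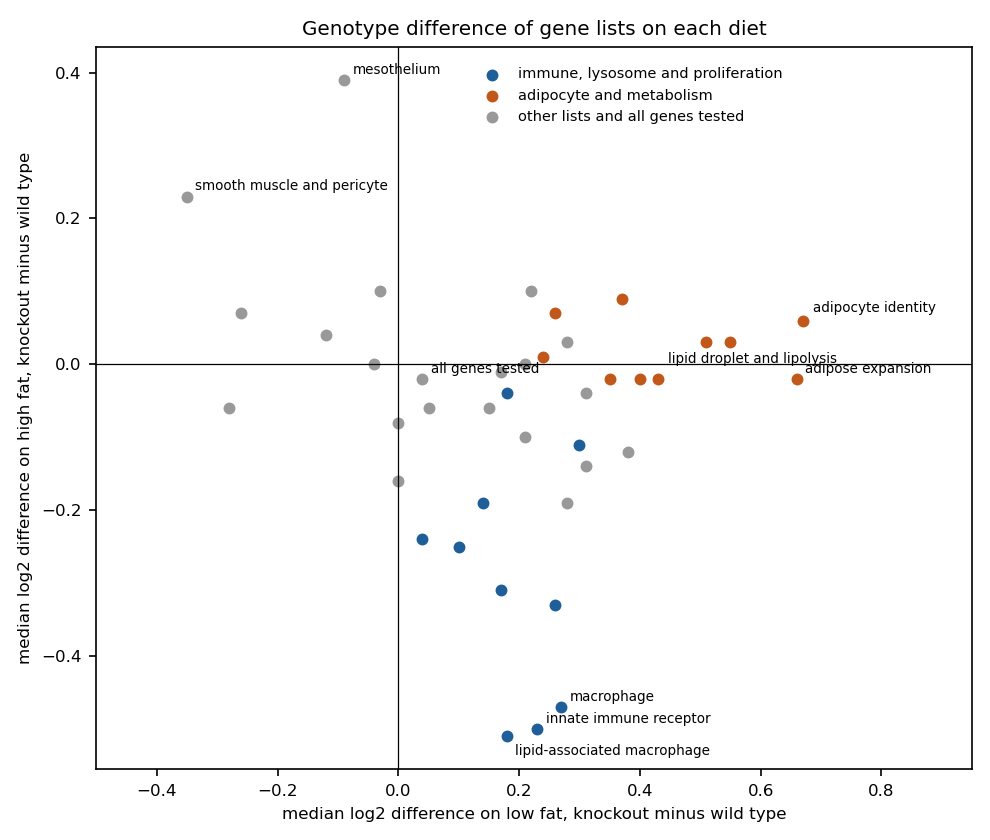
Median log2 difference of each gene list, knockout minus wild type, on low fat (horizontal) and on high fat (vertical). Adipocyte and metabolic lists (orange) lay between 0.24 and 0.67 on low fat and between -0.02 and 0.09 on high fat. Immune, lysosome and proliferation lists (blue) lay between 0.04 and 0.30 on low fat, where the colours overlap, and between -0.51 and -0.04 on high fat. The lists were coloured by their content.

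Ion channels and nuclear receptors held single genes with large values. Kcnk3, a background potassium channel of fat cells, read 49.6, 86.0 and 91.8 in wild type low fat, 249, 211 and 248 in wild type high fat, 178, 203 and 162 in knockout low fat, and 189, 125 and 182 in knockout high fat. The wild type groups bracketed all 6 knockout pools, and the interaction was -1.31 (SE 0.23, adjusted p = 0.0713). Ryr1, a calcium release channel best known from skeletal muscle, read 20.7, 32.1 and 31.4, then 237, 213 and 205 in wild type, and 78.4, 68.6 and 28.8, then 101, 56.1 and 110 in knockout, on low and high fat in turn. It was highest in wild type high fat, where the skeletal muscle list stood at 6.79 to 6.93 in mean log2 level. The part of muscle RNA in Ryr1 was not tested. The interaction of Ryr1 was -1.42 (SE 0.28, adjusted p = 0.0877). In the channel list, with 26 genes, 9 were more negative and 2 more positive. Kcnk5, another background channel, was one of the 2, at 2.11 (SE 0.50, adjusted p = 0.115).

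Rxrg, a retinoid X receptor that pairs with Pparg, read 54.5, 34.2 and 67.2 in wild type low fat, 192, 208 and 226 in wild type high fat, 81.3, 181 and 152 in knockout low fat, and 158, 117 and 148 in knockout high fat. All knockout pools lay between the wild type groups, with an interaction of -1.30 (SE 0.28, adjusted p = 0.103). Nr3c1, the glucocorticoid receptor, gave -0.92 (SE 0.23, adjusted p = 0.121), with the knockout higher on low fat by 1.29 (SE 0.16, adjusted p = 0.00752). Over 24 nuclear receptors and coregulators 5 were more negative, and the median was -0.34 (-0.15 with the covariate).

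Genes close to known substrates of Siah2 were examined next. Of 24 genes of the hypoxia response and the prolyl hydroxylases, 6 were more negative and 1 more positive, with a median of -0.25 (-0.04 with the covariate, and 0.02 without pool 2 of both knockout groups). P4ha1, a collagen prolyl hydroxylase induced by hypoxia, read 76.1, 78.0 and 78.3 in wild type low fat, 148, 180 and 234 in wild type high fat, 72.3, 125 and 99.5 in knockout low fat, and 102, 91.2 and 117 in knockout high fat. On high fat the P4ha1 pools of the genotypes did not overlap, and its interaction was -0.82 (SE 0.22, adjusted p = 0.132). Ankrd37, another gene induced by hypoxia, went the other way in value, at 1.12 (SE 0.32, adjusted p = 0.143). Of 20 genes of the Siah family and reported partners 4 were more negative (median -0.33), among them Dyrk2 and Hipk2, kinases that Siah2 is reported to target, at -0.58 (SE 0.19, adjusted p = 0.157) and -0.88 (SE 0.30, adjusted p = 0.165). The 26 proteasome genes had 0 more negative and 1 more positive, with a median of 0.03. Over 14 circadian clock genes 1 was more negative and 1 more positive, and the median was -0.36.

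The 11 uncalled genes that led the positive interactions outside the tract lists all fell with high fat in wild type, as 16.8% of all genes did. This fall is largely given by choosing genes with a positive interaction. Of the 924 more positive genes above, 680 fell in both genotypes as fitted and 242 fell in wild type and rose in knockout. Several stood highest in wild type low fat, the group with the most tract RNA. Slc38a5, an amino acid transporter, read 34974, 17024 and 12318 in wild type low fat and 104, 67.0 and 108 in wild type high fat, 345, 511 and 3387 in knockout low fat, and 235, 229 and 123 in knockout high fat. In the 3 wild type low fat pools the seminal vesicle list stood at 14.62, 14.75 and 11.82 in mean log2 level. The interaction of Slc38a5 was 5.17 (SE 0.96, adjusted p = 0.0783). Clpsl2, a colipase-like gene known from the epididymis that was on no list, gave 5.28 (SE 0.93, adjusted p = 0.0713) with 6712, 3636 and 799 in wild type low fat and the wild type high fat pools below 0. Serpinf2, which inhibits plasmin, gave 2.71 (SE 0.49, adjusted p = 0.0767), Hgfac, the activator of hepatocyte growth factor, 2.47 (SE 0.45, adjusted p = 0.0783), and Rec8, a meiotic cohesin subunit, 3.59 (SE 0.68, adjusted p = 0.081). At least 1 group was below the floor for Clpsl2, Serpinf2, Hgfac and Rec8, whose fitted interactions are thus not exact. The part of tract RNA in these 5 values was not tested beyond the covariate fit, which gave 4.44, 4.49, 2.16, 1.9 and 2.97 in that order.

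Other genes of this direction were above the floor in all groups and less extreme. Rhou, an atypical small GTPase, read 462, 408 and 326 in wild type low fat, 138, 146 and 147 in wild type high fat, 285, 278 and 281 in knockout low fat, and 248, 244 and 204 in knockout high fat. The 6 knockout pools lay between the wild type groups, and the interaction was 0.96 (SE 0.17, adjusted p = 0.0713). Prkcz, an atypical protein kinase C, read 371, 407 and 377 and then 55.2, 80.8 and 97.8 in wild type, against 254, 140 and 234 and then 192, 175 and 118 in knockout. Its interaction was 1.5 (SE 0.28, adjusted p = 0.0804). Echdc2, a mitochondrial protein of the enoyl-CoA hydratase family, fell by 2.11 in wild type (SE 0.20, adjusted p = 6.83e-05) against a value of -0.62 in knockout (SE 0.20, adjusted p = 0.133), with an interaction of 1.49 (SE 0.29, adjusted p = 0.0857). Tuft1 followed at 1.36 (SE 0.26, adjusted p = 0.0801).

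Igfbp2, a carrier of insulin-like growth factors, read 155, 166 and 90.7 in wild type low fat, 13.1, 14.7 and 37.8 in wild type high fat, 51.9, 24.7 and 56.4 in knockout low fat, and 48.5, 52.0 and 57.6 in knockout high fat. Its wild type high fat group was below the floor on average. The knockout was lower on low fat, with a log2 difference of -0.98 (SE 0.20, adjusted p = 0.0244), and the interaction was 1.51 (SE 0.28, adjusted p = 0.0783). Cldn10, a claudin of epithelial tight junctions, read 2254, 2739 and 1205, then 338, 256 and 328 in wild type, and 668, 396 and 619, then 1916, 555 and 639 in knockout. The highest knockout high fat pool was pool 1, where the epididymal list stood at 5.79 in mean log2 level. The part of tract RNA in Cldn10 was not tested beyond the covariate fit. The interaction of Cldn10 was 3.14 (SE 0.60, adjusted p = 0.0821), or 3.32 (SE 0.77) with the covariate. Its other probes gave 2.93 and 2.38.

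Few gene lists outside the tract had a positive median. The highest was 0.52, for 15 smooth muscle and pericyte genes, of which 0 passed an unadjusted p under 0.05 in either direction. That median was -0.20 with the epididymal covariate and -0.16 without pool 2 of both knockout groups. The mesothelium list, the surface layer of the depot, had 5 of 13 more positive and 1 more negative, with a median interaction of 0.28. With the covariate 1 of the 13 was more positive at that p (2.31% of all genes were) and the median was 0.49, and without pool 2 of both knockout groups it was 0.54. Its summed intensity ran from 12199 to 14386 in wild type low fat, from 4601 to 5559 in wild type high fat, from 5873 to 11928 in knockout low fat and from 6872 to 8082 in knockout high fat. Krt19, a keratin of mesothelium and of epithelia, read 383, 247 and 429, then 7.06, 11.9 and 33.2 in wild type, and 177, 28.7 and 114, then 64.2, 71.5 and 41.3 in knockout, with an interaction of 2.17 (SE 0.48, adjusted p = 0.105). Krt18, another such keratin, gave 3.77 (SE 1.17, adjusted p = 0.151), or 1.36 (SE 0.82) with the covariate. Cldn15, also of this list, went the other way in value, at -1.03 (SE 0.27, adjusted p = 0.132), or -0.60 (SE 0.27) with the covariate. Wild type high fat was below the floor for both keratins, which epithelium of the epididymis also makes.

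The unfolded protein response had 6 of 20 more positive and 1 more negative (median 0.22, or 0.15 with the covariate), ribosomal proteins 4 of 21 and 1 (0.25, or 0.08), and cholesterol synthesis 3 of 19 and 2 (0.15, or 0.09). Creld2, a secreted product of that stress response, read 2930, 1713 and 1610 in wild type low fat, 521, 730 and 505 in wild type high fat, 1120, 425 and 1189 in knockout low fat, and 683, 946 and 526 in knockout high fat. Its interaction was 1.48 (SE 0.52, adjusted p = 0.172), or 0.56 (SE 0.48) with the covariate. Sqle, an early oxidation step of cholesterol synthesis, gave 1.04 (SE 0.33, adjusted p = 0.152), or 0.57 (SE 0.35). Aldh1a1, which makes retinoic acid, read 7241, 7886 and 9458 in wild type low fat, 2344, 1916 and 2687 in wild type high fat, 7849, 4037 and 6160 in knockout low fat, and 3421, 6151 and 3668 in knockout high fat. It fell by 1.81 in wild type (SE 0.27, adjusted p = 0.000729), its genotypes did not overlap on high fat, and its interaction was 1.36 (SE 0.38, adjusted p = 0.141).

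**Figure D5:**
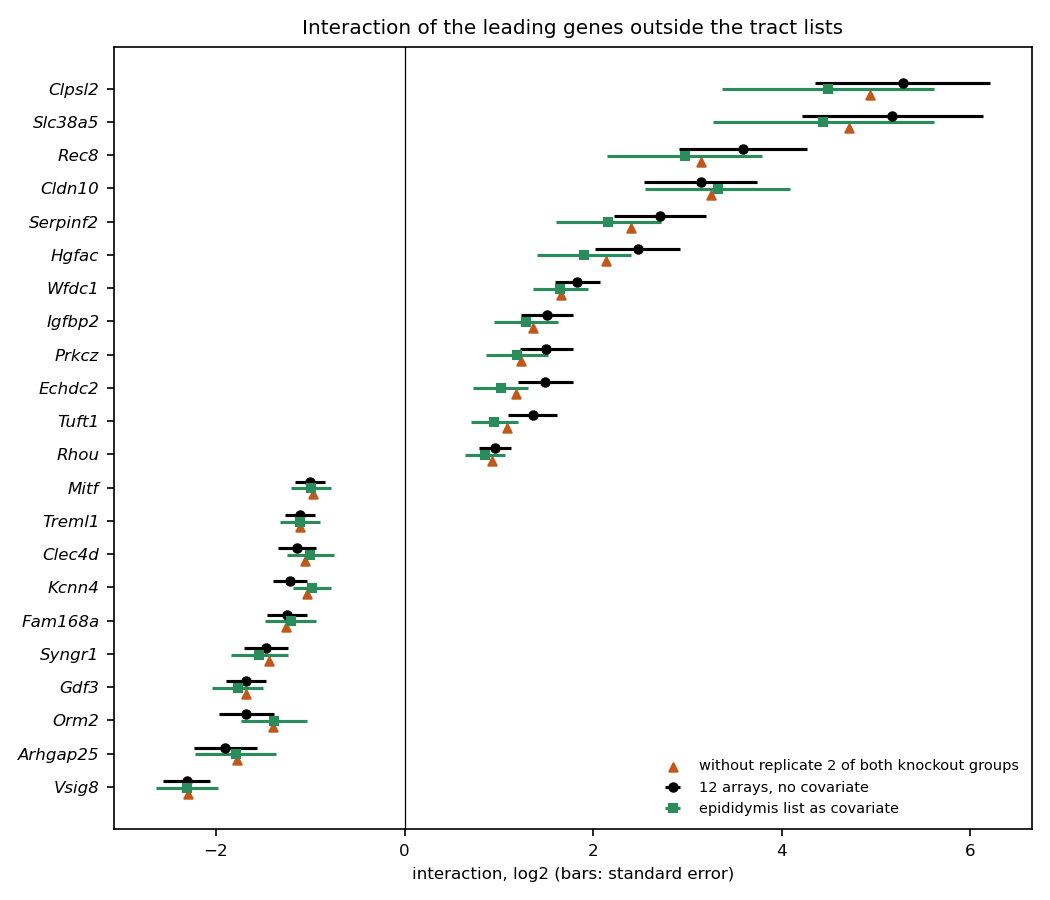
Interaction of 22 leading genes outside the tract lists with 12 arrays (black, bars are the standard error), with the epididymal mean as a covariate (green, bars are the standard error) and without pool 2 of both knockout groups (orange). The 22 genes, chosen by their p in the first of these fits, had one sign in the 3 fits. Vsig8 lay at -2.31, -2.31 and -2.29.

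The 22 leading genes kept the sign of their interaction in all 602 values from other settings and from fits that left out a pool. They were chosen for a low interaction p on these same arrays, so the kept sign is largely given by the choice. Vsig8 passed the threshold in 23 of 27 settings that tested it, Gdf3 in 19 of 26, Wfdc1 in 18 of 28, and Kcnn4 and Treml1 in 11 of 28 and 11 of 27. None of the 5 passed with the epididymal covariate, and none passed without pool 2 of both knockout groups. In these fits the median standard error over all genes was 0.27 and 0.238, against 0.226 in the main fit. The residual degrees of freedom were 7 and 6, against 8. Why the calls were lost was not tested.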

How the data were processed

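Total RNA of 12 pools of epididymal fat was hybridised to Illumina mouse bead arrays. The authors deposited normalized intensities, 1 per probe and sample, made with GenomeStudio per the submitters' processing notes. These are linear intensities: 22.9% were below 0 and the lowest was -27.5, so a background had been subtracted, and the column medians lay between 33.3 and 33.6. The deposited raw intensities and detection p-values carry array codes that no label ties to a sample, so they served only for gene names and for the number of arrays that detected a probe. A further 20 signal columns belong to no sample of the series and were not used. As a measure of depth, each array detected 13389 to 15037 of 25697 probes. Precision is limited by the 3 arrays in a group. The level exceeded by the share of probes that the least sensitive array detected, 27.9, served as an approximate floor.

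Values were taken as log2(intensity + 50), which compresses changes of dim genes. Probes with a detection p below 0.05 on 3 or more of the 12 arrays were used (15765 probes). For the 2935 genes with several such probes the brightest one stood for the gene, which left 11705 genes. A model of 4 group means was fitted with limma 3.58.1 in R 4.3.3, with 8 residual degrees of freedom. Tests were two-sided, with Benjamini-Hochberg adjustment over the 11705 genes. The step was tested on simulated data. Gene lists outside the tract (40) were described by counts and medians, with no test. The members and lists were chosen with earlier results of these data known. Genes named are the called ones outside the tract, the 12 with the lowest p in each direction, and up to 3 of each list by p. Of the genes so chosen, 2 are not reported here, 1 of them called, and the counts over all genes include both. Alternatives changed the offset, the detection filter, the probe rule, the scaling, the covariates, the replicate block, array weights, the variance model and the pools left out. Promoters are from RefSeq (GRCm38.p6).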

Additional observations from a re-analysis of the deposited data

Results flagged for a closer look

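These genes are listed because the diet effect differed between the genotypes by the interaction test itself, with an adjusted p under 0.05 in limma. Outside the reproductive tract those reported were Vsig8 (interaction -2.31), Gdf3 (-1.68), Kcnn4 (-1.22), Treml1 (-1.11) and Wfdc1 (1.83), described in the report. The tract genes were Defb45 (6.28) and Spag11b (6.20), secreted defensin-type proteins of the epididymis, and the seminal vesicle secretory genes Svs3b (5.74), Svs1 (4.89), Svs5 (4.02) and Svs4 (3.32). The 4 Svs genes were below the detection floor in both high fat groups, so their interactions are differences between the low fat groups against a floor, and are neither exact nor bounds.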

How the results depend on the processing

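The count of 12 genes past the threshold was 1 among genes detected on all 12 arrays, 3 with the epididymal covariate, 3 with a seminal vesicle covariate and 4 with epididymal and muscle covariates, the last pair of settings being chosen after seeing the data. It was 72 with array weights, 4 with the tract genes left out of the table, and 3 without replicate 2 of both knockout groups. It ranged from 5 to 124 over the fits that left out 1 pool. It was 9 to 12 with offsets of 16 and 100, no detection filter, a filter of 6 arrays, the mean of probes, cyclic loess scaling, and the trend and robust variance model, and 17 with a skeletal muscle covariate. The cause of these shifts was not tested. The replicate block gave 6 genes. Replicate numbers do not pair the pools: same-numbered pools of different groups had deviations that correlated between -0.812 and 0.162. The interaction of Siah2, -0.12, ranged from -0.199 to 0.0248 over the fits without 1 pool, and turned positive without knockout low fat replicate 1; it passed the threshold in none of them. Of 1120 list medians under these settings, 947 stayed within the spread between pools and 173 moved beyond it. Signal over background limits the values of Gdf3, Vsig8, Kcnn4, Treml1, Mitf and Clec4d, each with at least 1 group below the floor.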
